A study of Arabidopsis thaliana with 14 samples.

Results

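Sprayed rosettes of Arabidopsis thaliana line N2102363, which carries the transcription factor gene WRKY75 under estradiol control, were compared with sprayed rosettes of wild-type Col-0. The comparison used every library titled N2102363 with estradiol (n = 4) and every library titled Col-0 with estradiol (n = 3), 7 of the 14 RNA-seq libraries of the series, and was repeated with replicates 1 to 3 of the lines, which left replicate 4 of both N2102363 and N2102362 out of the fit, because the file names of those libraries carried a date of their own. All 7 were whole rosettes of 3-week-old plants, pooled from 5 rosettes each and taken 3 h after a spray of estradiol at 50 µM, with the wetting agent Silwet-L77 at 0.001%. Col-0 carried no inducible construct. The other libraries were Col-0 sprayed with water and the same wetting agent (n = 3) and N2102362, the other inducible line, sprayed with estradiol (n = 4), both used here for reference. N2102363 plants without estradiol were not analysed here, so a difference between the genotypes that was there before the spray and a response to WRKY75 cannot be told apart. The line is a single transgenic line, and the promoter and insertion site of its construct are not given in the labels.

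WRKY proteins are plant transcription factors that bind the W-box, a short DNA element with the core TTGAC, in the promoters of defence and stress genes. WRKY75 belongs to the group IIc branch of the family. In Arabidopsis it has been described as a regulator of phosphate starvation responses and root hair growth, of salicylic acid and hydrogen peroxide during leaf senescence, of defence against necrotrophic fungi, and of flowering.

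At 3 h, few genes passed the threshold for a difference between N2102363 and sprayed Col-0, which does not show that few differed. WRKY75, TPPI and the pseudogene AT1G42140 were higher in the line than in Col-0. The zinc transporter gene IRT3 and the uncharacterized gene AT3G01345 were lower. These were 5 of 19666 genes tested, or 0.0254%, at an adjusted p under 0.05 in edgeR's quasi-likelihood test, 3 higher and 2 lower. With replicates 1 to 3 of the lines, 7 of 19590 genes were called, or 0.0357%, 4 higher and 3 lower. These were the same 5 and, in addition, SHP1 (higher) and ZIFL1 (lower). Without replicate 4 of N2102363 alone, 6 genes were called, the same 5 and SHP1. DESeq2 called 37 of 20680 genes with all replicates, or 0.179%, 18 higher and 19 lower. The median log2 fold change over all genes was -0.0051, and 306 genes had an absolute log2 fold change of 1 or more. The median standard error of a log2 fold change was 0.166, and it lay under 0.5 for 95.4% of the genes.

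**Figure D1:**
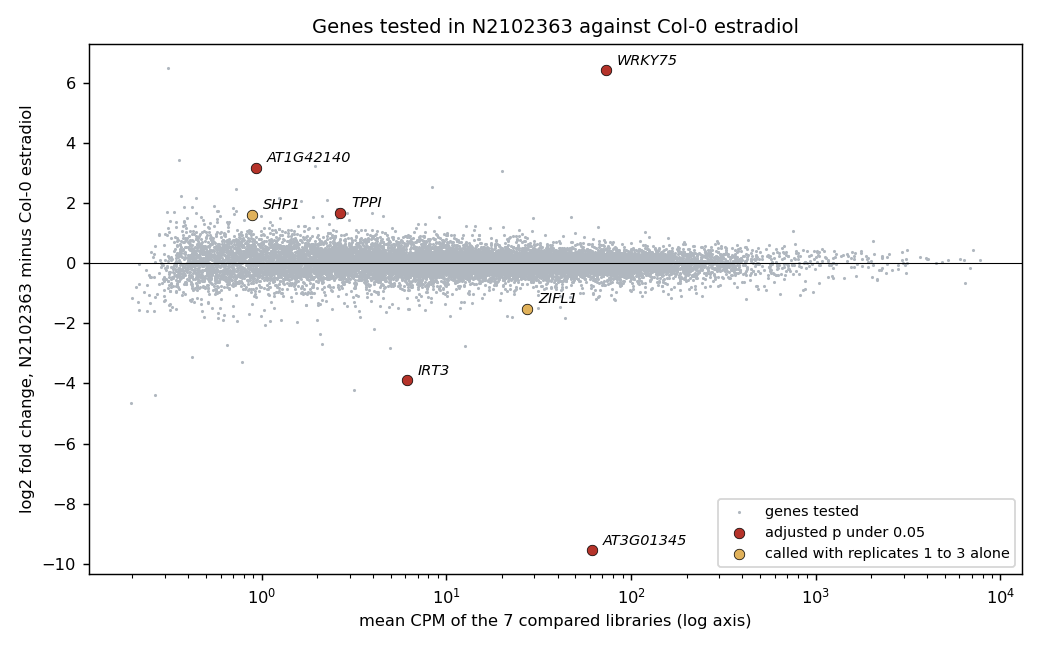
Log2 fold change of N2102363 minus Col-0 estradiol (y axis) against the mean CPM of the 7 compared libraries (x axis, log scale), with 1 point for each of 19666 genes. The 5 genes called with all replicates are red and the 2 more called with replicates 1 to 3 are yellow; AT3G01345 lies at -9.54 and WRKY75 at 6.42.

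The total count per library ran from 20520901 to 20767791 in Col-0 estradiol and from 20559563 to 22605970 in N2102363. Correlations of log2 CPM ran from 0.977 to 0.988 within N2102363, from 0.971 to 0.981 within Col-0 estradiol and from 0.953 to 0.991 between the groups. Replicate 4 correlated with replicates 1 to 3 of its line at 0.977 to 0.984, and with replicate 4 of N2102362 at 0.992. The 5 markers of leaf mesophyll were abundant in every library, at a summed level of 16954 to 29418 CPM in Col-0 estradiol and 23687 to 35596 CPM in N2102363. The labels call the samples biological replicates, and the design text counts 4 for the lines where the extraction protocol names 3, so what replicate 4 was is not settled by the sources. In bulk RNA, fewer cells of a type and less RNA per cell cannot be told apart.

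The sequences of 250 bases before the start of the genes the results turn on are shown with 2 short motifs, since WRKY75 is known to bind the W-box and since zinc transporter genes such as IRT3 are known targets of the zinc-responsive factors bZIP19 and bZIP23. Each runs 5′ to 3′ on the gene's own strand and ends just before the outermost annotated start, by the files or RefSeq (TAIR10.1). Capitals mark a W-box (TTGACC or TTGACT) or the core of the zinc deficiency element (TGTCGACA). ZIP4, another zinc transporter gene, is shown for comparison because it holds the same element. WRKY75 is at chr5:4151202-4151451 (minus strand), IRT3 at chr1:22447300-22447549 (minus), ZIP4 at chr1:3667140-3667389 (minus) and TPPI at chr5:3157444-3157693 (plus).
WRKY75: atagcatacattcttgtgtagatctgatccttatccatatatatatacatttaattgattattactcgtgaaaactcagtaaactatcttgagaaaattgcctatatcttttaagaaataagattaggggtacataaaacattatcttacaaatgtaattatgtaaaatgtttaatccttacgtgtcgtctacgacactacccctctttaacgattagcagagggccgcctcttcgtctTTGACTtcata
IRT3: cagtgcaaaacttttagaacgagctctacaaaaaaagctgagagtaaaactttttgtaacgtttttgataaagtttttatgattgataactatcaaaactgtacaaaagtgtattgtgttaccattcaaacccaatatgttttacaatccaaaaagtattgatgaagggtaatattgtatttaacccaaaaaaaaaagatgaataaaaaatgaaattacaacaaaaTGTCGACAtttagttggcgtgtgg
ZIP4: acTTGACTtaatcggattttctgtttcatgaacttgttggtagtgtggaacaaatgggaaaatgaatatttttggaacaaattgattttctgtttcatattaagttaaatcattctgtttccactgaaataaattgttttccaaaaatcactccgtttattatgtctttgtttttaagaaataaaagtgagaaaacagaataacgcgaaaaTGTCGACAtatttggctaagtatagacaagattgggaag
TPPI: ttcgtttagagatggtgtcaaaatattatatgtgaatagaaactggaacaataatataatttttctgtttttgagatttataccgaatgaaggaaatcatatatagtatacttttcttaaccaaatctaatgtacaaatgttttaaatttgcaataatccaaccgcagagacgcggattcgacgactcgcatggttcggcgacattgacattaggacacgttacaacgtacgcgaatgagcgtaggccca

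The upstream stretch of WRKY75 held 1 W-box, from base 11 to base 6 before the start. Both strands were searched, and 28.0% of 19576 genes held at least 1 W-box in a window of this length. Among the 7 genes called with all replicates or with replicates 1 to 3, TTGACC or TTGACT was found in this window of WRKY75. It was found in none of the other 6. The core TTGAC with another base after it was not searched for, and the TPPI window holds it as TTGACA. Sites further upstream of the called genes are not shown. TGTCGACA reads the same on both strands and was found before 52 of the 19576 genes, or 0.266%. It lay at bases 24 to 17 before IRT3 and at bases 39 to 32 before ZIP4, the 2 of 31 measured metal genes that held it. ZIP4 also held a W-box, at bases 248 to 243, which did not overlap its zinc deficiency element.

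WRKY75 (AT5G13080, chromosome 5, 4149740 to 4151150, minus strand, TAIR10) was the gene the line was built to induce. It stood at 2.69, 0.627 and 1.18 CPM (the usual count scaled to library size, with TMM factors) in the Col-0 estradiol libraries and at 76.8, 146, 116 and 167 CPM in N2102363 replicates 1 to 4. Every line library lay above every Col-0 library, and replicate 1 was the lowest of the line. The means were 1.5 ± 1.07 CPM (SD, n = 3) and 127 ± 39.3 CPM (n = 4), a log2 fold change of 6.42 ± 0.60 (SE, edgeR adjusted p = 8.06e-04). With replicates 1 to 3 it was 6.26 ± 0.43 (edgeR adjusted p = 1.83e-04). Permuting the 4 and 3 libraries exactly, two-sided, gave p = 0.0286, the smallest that this number of libraries allows. Counts do not separate the native gene's transcripts from those of the induced copy. In N2102362 the level was 42.7 ± 26.3 CPM (n = 4), and the log2 difference between the 2 lines, 1.57 ± 0.40, did not pass the threshold (edgeR adjusted p = 1.000). It was not called with the replicate number as a block either. This does not show that the 2 lines were alike in WRKY75.

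AT3G01345 (chromosome 3, 129138 to 130749, plus strand) codes for a protein that RefSeq lists as uncharacterized. It was a well-expressed gene in Col-0, at 133, 166 and 130 CPM with estradiol, and stood at 0.176, 0.0888, 0.290 and 0.201 CPM in N2102363. The line libraries held 4, 2, 6 and 4 counts of it, against 2524 to 3700 in Col-0 estradiol. The groups lay far apart, with the line near the level of single counts. The log2 fold change was -9.54 ± 0.42 (edgeR adjusted p = 1.43e-07), and -9.57 ± 0.45 with replicates 1 to 3 (edgeR adjusted p = 5.29e-06). Its level in Col-0 with water, 168 ± 22.5 CPM (n = 3), was also far above the line. The exact permutation p was 0.0286. Called genes other than WRKY75 were picked because they differed in these same libraries. Their exact p, here and below, is unadjusted and is not further support. The groups did not overlap for 2198 of the 19666 genes tested.

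IRT3 (AT1G60960, chromosome 1, 22445310 to 22447214, minus strand) codes for a ZIP-family transporter that takes up zinc and iron. Its level was 12.9, 18.0 and 8.32 CPM in Col-0 estradiol and 1.06, 0.399, 0.677 and 1.40 CPM in N2102363. No line library reached the lowest Col-0 library. The means were 13.1 ± 4.85 and 0.884 ± 0.439 CPM, and the log2 fold change was -3.89 ± 0.44 (edgeR adjusted p = 0.00328) with all replicates and -4.19 ± 0.43 (edgeR adjusted p = 0.00586) with replicates 1 to 3. The exact permutation p was 0.0286.

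TPPI (AT5G10100, chromosome 5, 3157980 to 3161708, plus strand) codes for a trehalose-6-phosphate phosphatase, an enzyme that removes the sugar signal trehalose-6-phosphate. It stood at 1.06, 1.16 and 1.33 CPM in Col-0 estradiol and at 3.66, 4.66, 3.48 and 3.36 CPM in N2102363. The groups did not overlap and the spread within each was small. The log2 fold change was 1.67 ± 0.19 (edgeR adjusted p = 0.00328), and 1.72 ± 0.21 with replicates 1 to 3 (edgeR adjusted p = 0.0167). The exact permutation p was 0.0286.

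AT1G42140 (chromosome 1, 15736521 to 15741101, minus strand), annotated as a pseudogene, stood at 0.0528, 0.224 and 0.197 CPM in Col-0 estradiol and at 1.63, 1.64, 1.35 and 1.40 CPM in the line. These levels were 1 to 5 counts in Col-0 estradiol and 28 to 37 counts in the line, with no overlap. The log2 fold change was 3.18 ± 0.34 (edgeR adjusted p = 0.00219), and 3.20 ± 0.37 with replicates 1 to 3 (edgeR adjusted p = 0.0128). At least 90% identity over 200 bases or more was found to 48 other genes, up to 91.1% over 4596 bases with AT5G30269. Which copy the reads came from is therefore uncertain.

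In edgeR, SHP1 and ZIFL1 passed the threshold with replicate 4 of both lines left out and not with all replicates. DESeq2 called both with all replicates (adjusted p = 0.038 for SHP1 and 2.14e-05 for ZIFL1). ZIFL1 was also called with Col-0 estradiol replicate 3 alone left out (edgeR adjusted p = 0.0436). SHP1 (AT3G58780), a MADS-box gene known for carpel and fruit development, was at 0.475, 0.358 and 0.394 CPM in Col-0 estradiol and at 1.41, 1.64, 1.26 and 0.702 CPM in N2102363, where replicate 4 was the lowest. Its log2 fold change was 1.80 ± 0.24 with replicates 1 to 3 (edgeR adjusted p = 0.0338) and 1.61 ± 0.29 with all (edgeR adjusted p = 0.185). In that repeat its call was lost in each of the 6 fits that left out 1 more of the compared libraries (edgeR adjusted p from 0.0835 to 0.228) and with a replicate block (edgeR adjusted p = 0.0638). It overlaps AT3G58790, and the libraries do not mark strand. These levels rest on 8 or 9 counts in Col-0 estradiol and 14 to 37 counts in the line.

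ZIFL1 (AT5G13750), a membrane transporter gene of the major facilitator superfamily known for auxin transport and drought tolerance, was at 48.9, 51.1 and 30.6 CPM in Col-0 estradiol. In N2102363 it was at 17.5, 17.4, 14.3 and 11.6 CPM, below every Col-0 library. The log2 fold change was -1.41 ± 0.20 with replicates 1 to 3 (edgeR adjusted p = 0.0496) and -1.52 ± 0.25 with all (edgeR adjusted p = 0.107). Without replicate 4 of N2102363 alone ZIFL1 was not called (edgeR adjusted p = 0.351), so the call in the repeat also needed replicate 4 of N2102362, outside the comparison, to be left out. The exact permutation p over all 7 libraries was 0.0286 for ZIFL1 and 0.0571 for SHP1. With 3 against 3 libraries no exact p can fall below 0.1, which all 7 genes reached. In N2102362, ZIFL1 stood at 36.1 ± 11.5 CPM (n = 4), and the difference between the lines was -1.25 ± 0.24, with an unadjusted p of 1.60e-04 that did not survive adjustment (edgeR adjusted p = 0.875). With the replicate number as a block, which pairs the 2 lines, ZIFL1 was called between them (-1.22, edgeR adjusted p = 0.00298), as it was by DESeq2 (adjusted p = 0.00324).

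**Figure D2:**
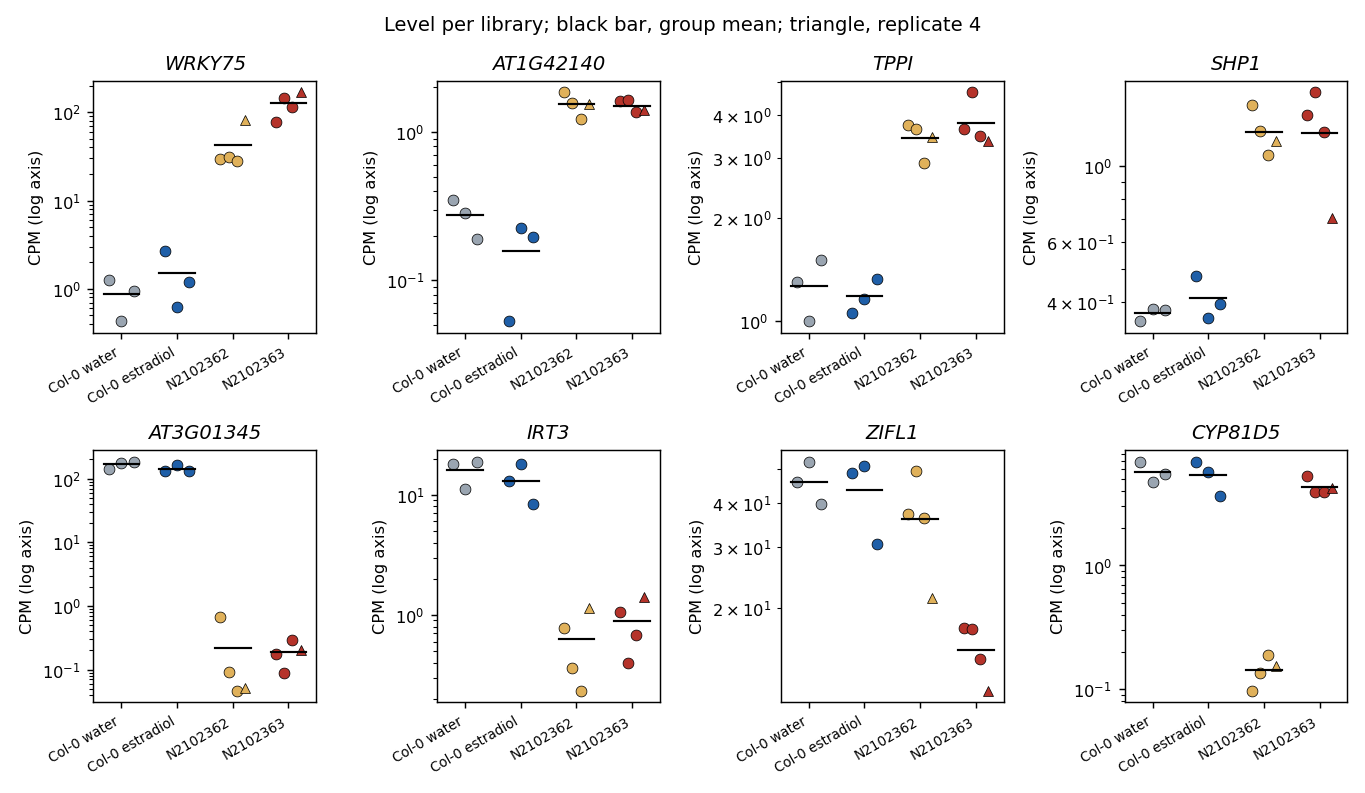
CPM per library (y axis, log scale) of WRKY75, the 6 other genes called with all replicates or with replicates 1 to 3, and CYP81D5, in Col-0 water (n = 3), Col-0 estradiol (n = 3), N2102362 (n = 4) and N2102363 (n = 4). Circles are replicates 1 to 3, triangles replicate 4 and black bars group means; ZIFL1 lies at 11.6 to 17.5 CPM in N2102363 and CYP81D5 at 0.0972 to 0.187 CPM in N2102362.

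The same 4 N2102363 libraries were also set against Col-0 sprayed with water, in a fit of all 14 libraries. That contrast adds the estradiol spray to the difference between the genotypes. Its values are therefore a description and not independent support. The directions were the same for all 7 genes. The log2 fold change was 7.17 ± 0.63 for WRKY75, -9.77 ± 0.42 for AT3G01345, -4.18 ± 0.44 for IRT3, 1.57 ± 0.19 for TPPI, 2.44 ± 0.31 for AT1G42140, 1.75 ± 0.30 for SHP1 and -1.60 ± 0.25 for ZIFL1. All 7 were called there, among 27 genes (edgeR). N2102362 was set against the same 3 Col-0 estradiol libraries, so its values are given beside those of N2102363 as a description. They were 4.85 ± 0.57 for WRKY75, -9.33 ± 0.41 for AT3G01345, -4.40 ± 0.46 for IRT3, 1.53 ± 0.19 for TPPI, 3.21 ± 0.34 for AT1G42140, 1.61 ± 0.29 for SHP1 and -0.27 ± 0.25 for ZIFL1.

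Between the lines directly, 1 of 19666 genes was called, or 0.00508%, and 2 with the replicate block, the other being ZIFL1. The gene called in both fits was CYP81D5 (AT4G37320), a cytochrome P450 gene. It was at 5.33, 3.91, 3.91 and 4.26 CPM in N2102363 and at 0.0972, 0.135, 0.187 and 0.154 CPM in N2102362, with no overlap. The difference was 4.87 ± 0.29 on the log2 scale (edgeR adjusted p = 6.29e-06). In N2102363 it did not differ from Col-0 estradiol beyond the threshold, at 6.91, 5.69 and 3.64 CPM there and a log2 fold change of -0.31 ± 0.21 (edgeR adjusted p = 0.543). IRT3 and TPPI differed between the lines by 0.51 ± 0.51 and 0.14 ± 0.16, and neither difference was called.

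**Figure D3:**
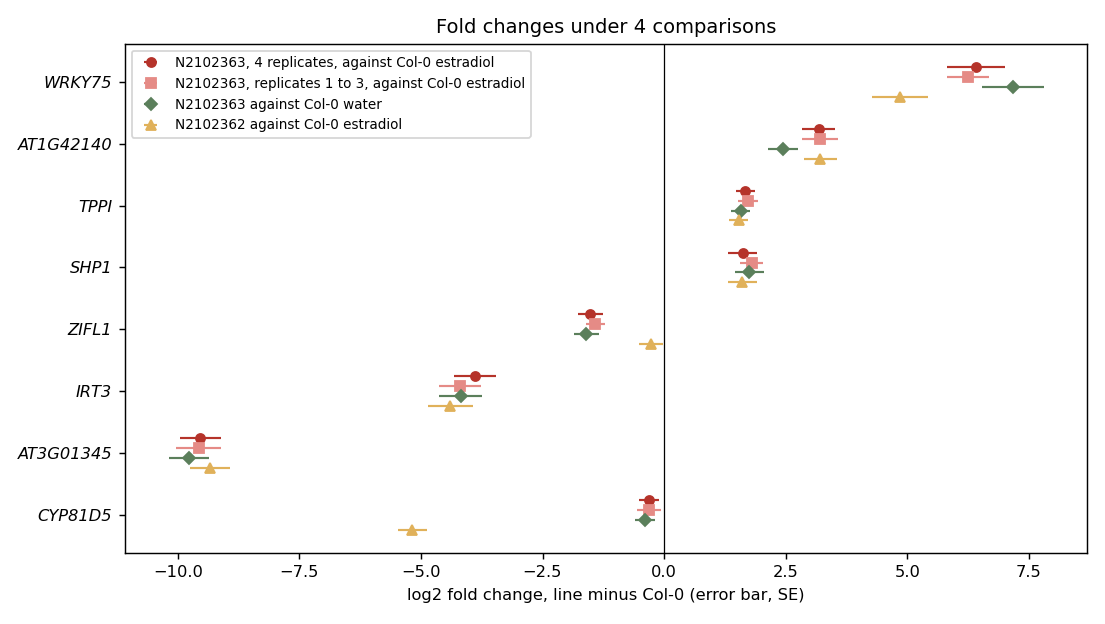
Log2 fold change (x axis, error bars SE) of 8 genes in N2102363 against Col-0 estradiol with all replicates and with replicates 1 to 3, in N2102363 against Col-0 water, and in N2102362 against Col-0 estradiol. ZIFL1 lies at -1.52 in N2102363 and -0.27 in N2102362, and CYP81D5 at -0.31 and -5.18.

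Of the 28 annotated genes tested that were nearest, 2 on each side, none was called, and their log2 fold changes ran from -0.79 to 0.79. The lowest was ZIF1, the gene beside ZIFL1 and another transporter of its family, known for zinc storage in the vacuole. ZIF1 was at 68.0, 35.3 and 63.9 CPM in Col-0 estradiol and at 33.1, 37.3, 25.5 and 33.1 CPM in the line, so that the groups overlapped (-0.79 ± 0.20, edgeR adjusted p = 0.431). The highest was FLC, a repressor of flowering near TPPI, at 1.58, 1.12 and 1.62 CPM against 2.73, 2.09, 3.29 and 1.86 CPM, without overlap (0.79 ± 0.28, edgeR adjusted p = 0.431).

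Beyond these genes, 2205 genes had an unadjusted p under 0.05, or 11.2%, of which 1024 were higher (5.21%) and 1181 lower (6.01%). The groups did not overlap, with the line above, for 1137 of the tested genes (5.78%) and, with the line below, for 1061 (5.4%). The genes named next, uncalled in edgeR, had the smallest p of non-overlapping genes with a mean of 1 CPM or more, 10 per direction. They are given as values, not as changes. DESeq2 called all of them but ATCG00690 (adjusted p = 0.0913), among its 37 genes, AT2G01008 at 3.01e-07 and AT4G16870 at 4.05e-06. On the lower side AT4G16870, annotated as a pseudogene, was at 150, 105 and 157 CPM against 72.1, 87.7, 65.0 and 65.1 CPM (-0.92 ± 0.14, edgeR adjusted p = 0.0565). AT4G16870 was called with library totals alone (edgeR adjusted p = 0.0211) and not with a replicate block (edgeR adjusted p = 0.121). AT2G01008, at 15.3, 8.60 and 5.37 CPM against 1.54, 1.82, 1.21 and 0.903 CPM, had a log2 fold change of -2.82 ± 0.43 (edgeR adjusted p = 0.0569), and 2 other genes matched it, AT3G41762 at 99.2% over 863 bases. The others were AT3G47836, the neighbouring SDH7 (a subunit of succinate dehydrogenase, -0.68 ± 0.14), AT2G45290 (a transketolase), ABH1 (the large subunit of the nuclear cap-binding complex, -0.42 ± 0.09), ARP9, MSRB5 (a methionine sulfoxide reductase, -0.99 ± 0.21), AT4G25890 and AT1G08940. SDH7 was at 29.0, 21.0 and 19.99 CPM in Col-0 estradiol and at 12.9, 17.3, 14.2 and 13.8 CPM in the line.

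On the higher side the reticulon-family gene AT3G18260 was at 1.90, 1.48 and 1.92 CPM against 3.66, 2.97, 3.24 and 3.66 CPM (0.94 ± 0.16, edgeR adjusted p = 0.158). The pseudogene AT2G15810 was at 1.69, 0.896 and 1.33 CPM in Col-0 estradiol and at 3.57, 4.26, 3.62 and 4.92 CPM in the line (1.65 ± 0.36, edgeR adjusted p = 0.431). BBX21, a B-box transcription factor of light signalling, was at 41.1, 42.2 and 48.6 CPM against 58.8, 56.6, 52.7 and 54.2 CPM (0.34 ± 0.08). The others were AT1G51405, AT5G57340, AT3G22142, MIR863, AT3G23880, the plastid gene ATCG00690 and AT1G17780, with log2 fold changes from 0.43 to 1.09.

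A log2 fold change of 3 or more in size was found for 9 uncalled genes, 4 higher (PR1 among them) and 5 lower, which were picked out after their values were seen; 4 of the 9 overlapped between the groups. MYB90, which activates anthocyanin synthesis, had a log2 fold change of -4.20 ± 1.55, with 0.633, 19.9 and 0.0985 CPM in Col-0 estradiol and 0.661, 0.311, 0.290 and 0.201 CPM in the line. Among the 3 Col-0 estradiol libraries the high value of MYB90 was in replicate 2 alone, and the groups overlapped. MYB90 was at 4.45, 4.42 and 1.61 CPM in Col-0 water, above every N2102363 library. In N2102362 it was at 0.0972, 11.7, 1.64 and 0.411 CPM, also highest in replicate 2. AT3G52700 had a log2 fold change of 3.44 ± 0.65 (edgeR adjusted p = 0.230), at 0.0448 to 0.0528 CPM in Col-0 estradiol and 0.387 to 0.754 CPM in the line, without overlap. A single count was 0.044 to 0.0528 CPM, so each Col-0 estradiol library held 1 count of AT3G52700. Its fold change therefore rests on values at the floor, and Col-0 water reached 0.2 CPM. MIR169m, the locus of a microRNA precursor, was at 0 in the 3 Col-0 estradiol libraries and in replicate 2 of the line, and at 1.61 CPM in replicate 4.

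The 25 lists of genes with known roles held 417 genes, of which 372 passed the filter on low counts. IRT3 and TPPI were called among them with all replicates, and ZIFL1 in addition with replicates 1 to 3. For every other list member the log2 fold change is a value, not a change, and counts at an unadjusted p under 0.05 stand against the backgrounds of 5.21% higher and 6.01% lower given above. Over all genes 9667 lay above and 9999 below Col-0 estradiol.

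**Figure D4:**
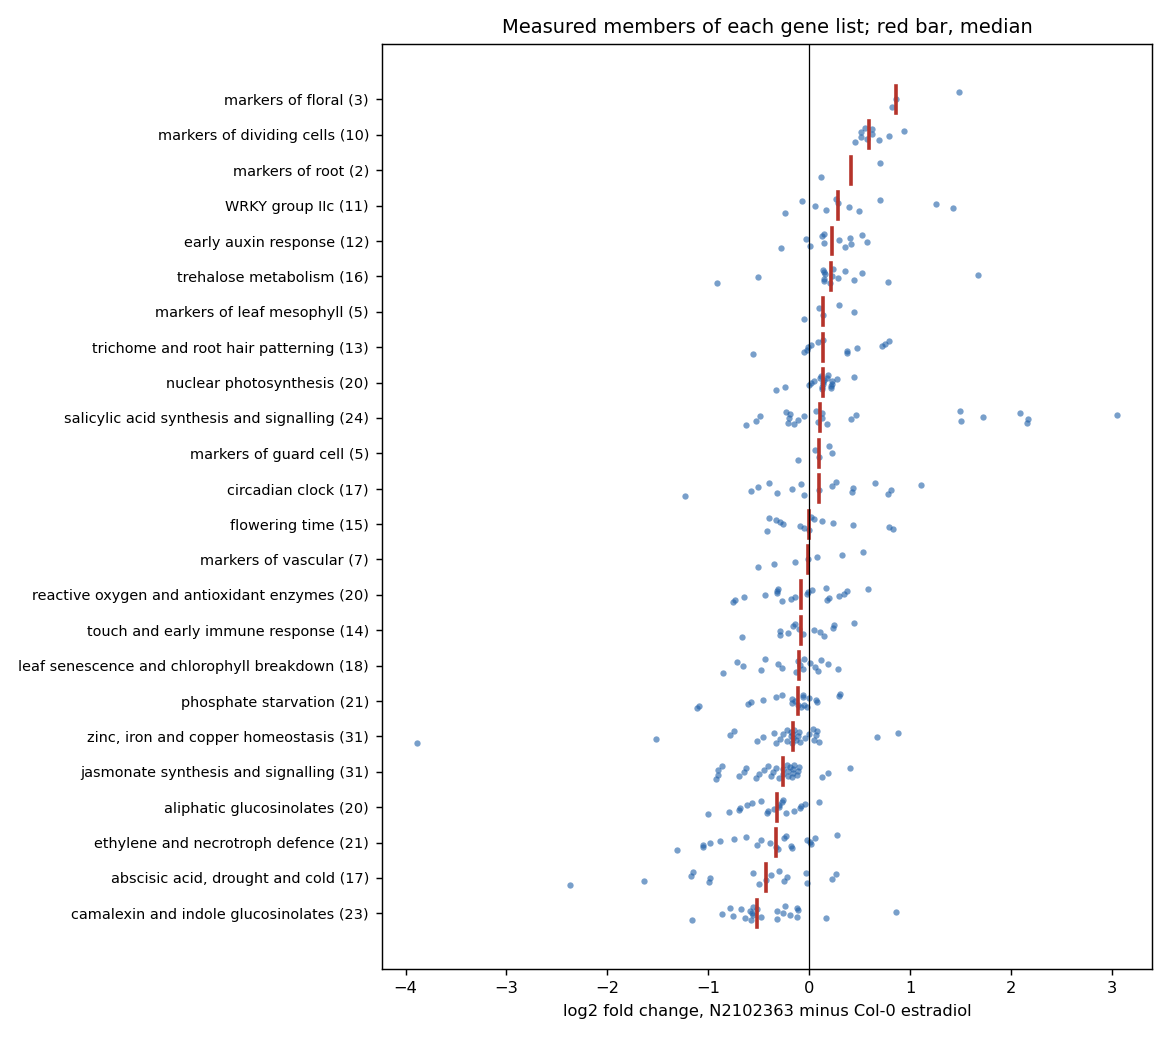
Log2 fold change of N2102363 minus Col-0 estradiol (x axis) for the measured members of 24 lists (y axis, number of members in brackets), with 1 blue point a gene and a red bar at the list's median. The medians run from -0.52 for camalexin and indole glucosinolates to 0.86 for the 3 measured floral markers, and IRT3 lies at -3.89 among the metal genes.

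Of 31 measured genes for zinc, iron and copper, 24 were lower and 7 higher, with a median of -0.16. IRT3 was called, and 4 of the 31 (all lower, IRT3 among them) had an unadjusted p under 0.05. The others were ZIFL1, ZIF1 and NRAMP4, a transporter that releases iron from the vacuole, which was at 38.8, 37.5 and 34.9 CPM against 29.1, 30.9, 27.5 and 30.4 CPM (-0.33 ± 0.09, edgeR adjusted p = 0.431). The zinc-responsive regulators bZIP19 (BZIP19) and bZIP23 (BZIP23) had log2 fold changes of -0.09 and 0.07. ZIP4, which shares the zinc deficiency element with IRT3, had one of -0.35 ± 0.19 (edgeR adjusted p = 0.475). ZIP5 had one of -0.0030 ± 0.28. IRT1, IRT2, ZIP2, ZIP9 and ZIP10, also transporters of the family, were below the count filter.

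Of 16 measured genes of trehalose metabolism, 14 were higher and 2 lower, with a median of 0.22, and 4 had an unadjusted p under 0.05, all higher. TPPI was called. The others were the phosphatases TPPB at 3.80, 2.87 and 5.37 CPM against 6.61, 5.06, 7.68 and 8.23 CPM (0.78 ± 0.25), TPPA at 23.3, 28.8 and 31.8 CPM against 35.01, 35.1, 37.2 and 45.4 CPM (0.45 ± 0.15), and TPPH (0.52 ± 0.23). TPPA did not overlap between the groups, and TPPB and TPPH did. TPS1, the main trehalose-6-phosphate synthase, had a log2 fold change of 0.28 ± 0.18, and TPPE the lowest of the list at -0.91.

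Of 23 measured genes for camalexin and indole glucosinolates, defence compounds made from tryptophan, 21 were lower and 2 higher, with a median of -0.52. An unadjusted p under 0.05 was reached by 10, all lower, but none was called. The groups did not overlap for 8 of the 23, against 2198 of all 19666 genes tested. GGP1, which processes the glutathione conjugate on this route, was at 287, 312 and 231 CPM in Col-0 estradiol and at 180, 209, 113 and 140 CPM in the line (-0.79 ± 0.23, edgeR adjusted p = 0.431). CYP79B2, which converts tryptophan to the shared precursor, was at 54.8, 49.8 and 43.9 CPM against 38.3, 37.9, 26.6 and 31.4 CPM (-0.56 ± 0.18). SUR1, the C-S lyase, had a log2 fold change of -0.55 ± 0.17, and ASA1, which starts tryptophan synthesis, one of -0.67 ± 0.23. The camalexin enzyme CYP71A13 went the other way in value, at 0.86 ± 0.91. With replicates 1 to 3 the list's median was -0.42, and against Col-0 water it was -0.63 with 20 of 23 lower.

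Of 20 aliphatic glucosinolate genes 19 were lower, with a median of -0.32, and 2 lower ones had an unadjusted p under 0.05. CYP83A1, the core enzyme of that branch, was at 273, 209 and 120 CPM against 130, 129, 81.1 and 159 CPM (-0.69 ± 0.30, edgeR adjusted p = 0.443), with overlap. With replicates 1 to 3 the list's median was -0.60, with 20 of 20 lower, and against Col-0 water it was -0.19, with 16 of 20 lower.

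For salicylic acid, 14 of 24 genes were higher and 10 lower, with a median of 0.11, and 4 higher ones had an unadjusted p under 0.05. PR1, a marker of salicylic acid defence, was at 7.12, 1.52 and 3.05 CPM in Col-0 estradiol and at 94.7, 12.3, 9.62 and 11.7 CPM in N2102363. All line libraries lay above Col-0, and replicate 1 stood far above the rest (3.06 ± 0.99, edgeR adjusted p = 0.431). Without that replicate the log2 fold change was 1.53 (edgeR adjusted p = 0.497). ALD1, which makes the pipecolic acid precursor, was at 0.844, 0.224 and 0.197 CPM against 5.33, 0.533, 0.483 and 1.05 CPM. DLO1, which hydroxylates salicylic acid, was at 1.32, 0.672 and 0.394 CPM against 10.4, 1.38, 0.870 and 0.702 CPM. In ALD1 and DLO1 replicate 1 was again the highest, and the groups overlapped. Without it their log2 fold changes went from 2.16 to 0.73 and from 2.09 to 0.32. WRKY38 was at 0.0528, 0.179 and 0.197 CPM against 1.37, 0.621, 0.483 and 0.201 CPM (2.17 ± 0.78, edgeR adjusted p = 0.431). These were only a few counts per library in Col-0 estradiol. The summed level of the list was 662 to 706 CPM in Col-0 estradiol and 446 to 1136 CPM in the line, lowest in replicate 4. The list's median was 0.33 with replicates 1 to 3 and 0.26 against Col-0 water, with 15 of 24 higher in both.

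For jasmonate, 28 of 31 genes were lower and 3 higher, with a median of -0.26, and 1 (LOX3, a lipoxygenase of jasmonate synthesis) had an unadjusted p under 0.05. LOX3 was at 39.3, 15.5 and 41.6 CPM against 21.3, 22.3, 8.80 and 15.95 CPM, with overlap (-0.91 ± 0.40, edgeR adjusted p = 0.445). The jasmonate list's median was -0.48 with replicates 1 to 3, and against Col-0 water it had the other sign, 0.22, with 19 of 31 higher. For ethylene and defence against necrotrophs, 17 of 21 were lower, with a median of -0.33, and 2 lower ones had an unadjusted p under 0.05. These were ORA59, a regulator of defensin genes, at 44.1, 57.8 and 31.5 CPM against 21.5, 39.1, 13.2 and 11.8 CPM (-1.05 ± 0.48, edgeR adjusted p = 0.445), and the chitin-binding PR4, at 467, 320 and 157 CPM against 249, 190, 121 and 77.4 CPM (-0.98 ± 0.45). Both overlapped between the groups.

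**Figure D5:**
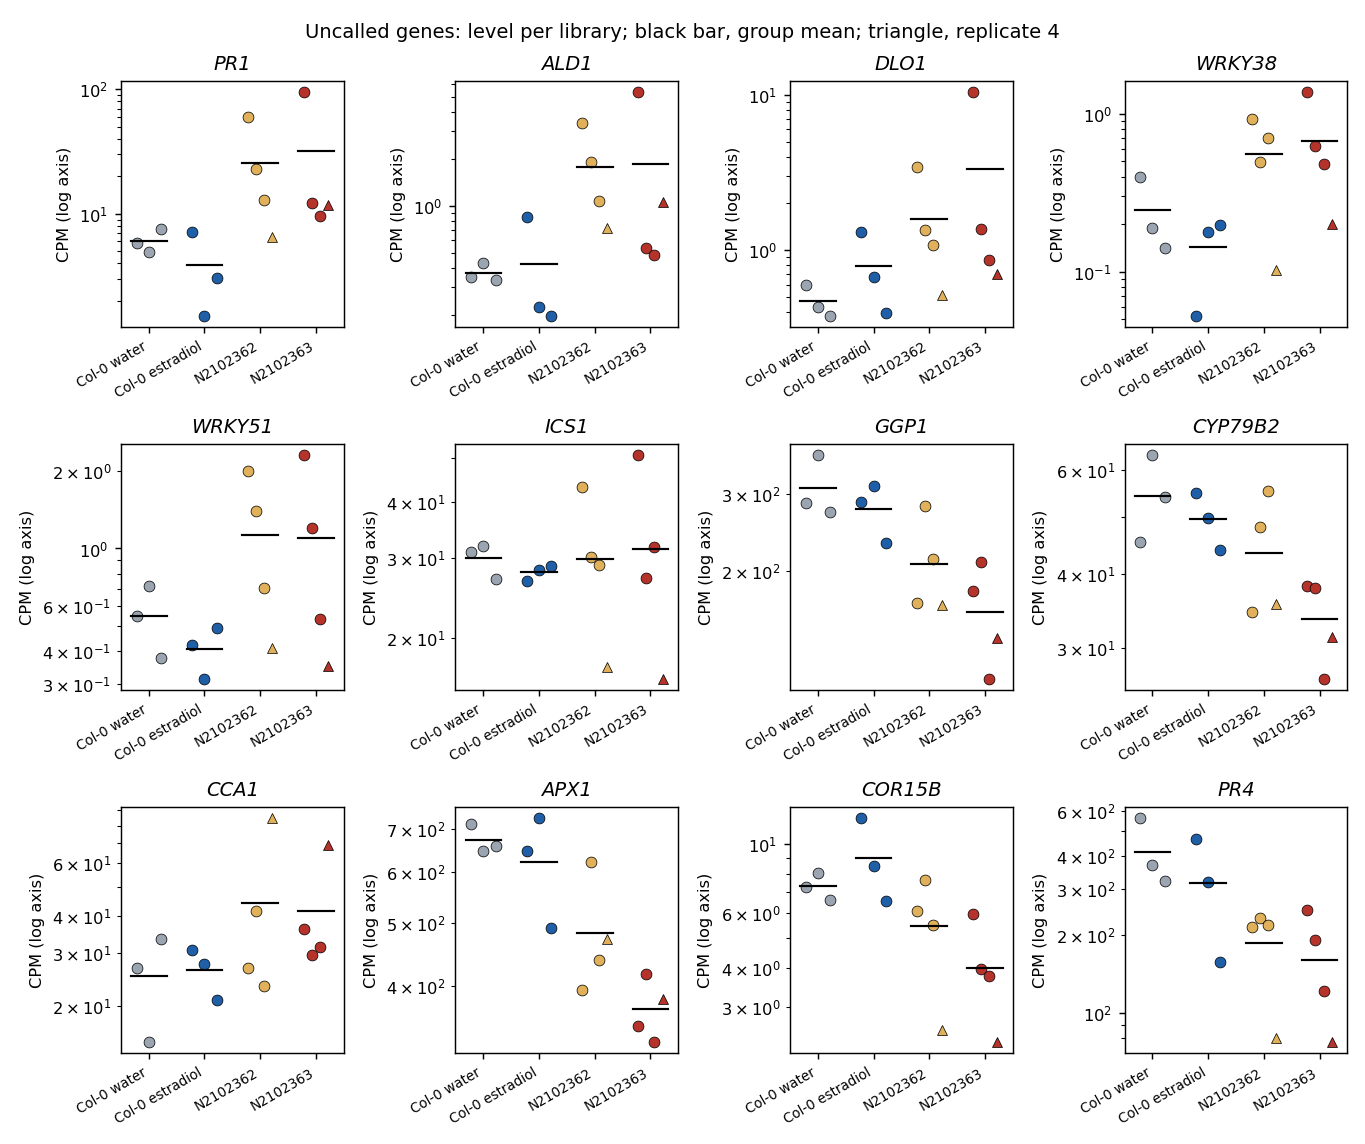
CPM per library (y axis, log scale) of 12 uncalled genes in Col-0 water (n = 3), Col-0 estradiol (n = 3), N2102362 (n = 4) and N2102363 (n = 4). Circles are replicates 1 to 3, triangles replicate 4 and black bars group means; PR1 lies at 94.7 CPM in N2102363 replicate 1 and at 9.62 to 12.3 CPM in the others, and CCA1 at 69.1 CPM in replicate 4.

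Of 17 genes for abscisic acid, drought and cold, 15 were lower, with a median of -0.43, and 2 lower ones had an unadjusted p under 0.05. COR15B, a cold-induced chloroplast protein, was at 12.1, 8.51 and 6.55 CPM against 5.95, 3.95, 3.77 and 2.31 CPM (-1.17 ± 0.34, edgeR adjusted p = 0.431), without overlap. RAB18, a dehydrin, had a log2 fold change of -0.56 ± 0.19. Against Col-0 water 10 of the 17 were lower, with a median of -0.17, and 2 higher and 2 lower ones had an unadjusted p under 0.05. Of 20 genes for reactive oxygen and antioxidants, 12 were lower and 8 higher, with a median of -0.08, which was -0.16 with replicates 1 to 3 and turned to 0.16 against Col-0 water. APX1, the cytosolic ascorbate peroxidase, was at 646, 726 and 492 CPM against 347, 418, 328 and 382 CPM, without overlap (-0.75 ± 0.17, edgeR adjusted p = 0.431). Like most of the genes named above by smallest p, APX1 was among the 37 genes called by DESeq2 (adjusted p = 0.0125). Of 21 phosphate starvation genes 17 were lower, with a median of -0.11. The phosphate exporter PHO1 had a log2 fold change of 0.30 ± 0.13 and the lipid-remodelling PLDZ2 one of -0.57 ± 0.26. Of 18 genes of leaf senescence and chlorophyll breakdown, 12 were lower and none had an unadjusted p under 0.05, with a median of -0.10, which was -0.04 with replicates 1 to 3. SAG113, a phosphatase of senescence, had a log2 fold change of -0.86 ± 0.40.

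Among 11 measured group IIc WRKY genes other than WRKY75, 9 were higher, with a median of 0.28, and 2 higher ones had an unadjusted p under 0.05. WRKY50 was at 2.01, 1.61 and 1.58 CPM against 3.92, 2.22, 2.95 and 2.16 CPM, without overlap (log2 fold change 0.70 ± 0.24, edgeR adjusted p = 0.431). WRKY49 had a log2 fold change of 1.26 ± 0.48. WRKY51, at 0.422, 0.314 and 0.492 CPM against 2.29, 1.198, 0.532 and 0.351 CPM, was highest in replicate 1 and overlapped in replicate 4 (1.43 ± 0.66).

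Of 12 early auxin response genes 10 were higher, with a median of 0.22, and 4 higher ones had an unadjusted p under 0.05, the Aux/IAA repressor genes IAA1 (0.58 ± 0.24), IAA2 (0.41 ± 0.17), IAA3 (0.42 ± 0.14) and IAA4 (0.35 ± 0.15). Of 15 flowering time genes 8 were higher and 7 lower, and with replicates 1 to 3 it was 6 and 9. SOC1, a promoter of flowering, was at 53.9, 40.8 and 50.0 CPM against 74.5, 59.0, 67.2 and 59.7 CPM, without overlap (0.43 ± 0.12, edgeR adjusted p = 0.431). The DELLA repressors RGA1 and GAI had log2 fold changes of -0.41 ± 0.14 and -0.29 ± 0.10. Of 13 trichome and root hair genes 9 were higher, with a median of 0.14, but with replicates 1 to 3 the count turned over to 5 higher and 7 lower of the 12 then tested, with a median of -0.0031. ETC1, an inhibitor of trichome formation, had a log2 fold change of 0.79 ± 0.31. Of 17 clock genes 9 were higher, with a median of 0.097 that was 0.045 with replicates 1 to 3, and the morning gene CCA1 was at 30.9, 27.6 and 21.0 CPM against 36.2, 29.6, 31.5 and 69.1 CPM, with the highest value in replicate 4, and its log2 fold change went from 0.65 ± 0.44 to 0.29 without that replicate. For 14 genes of touch and early immune responses the median was -0.08 and none had an unadjusted p under 0.05. That median turned to 0.027 with replicates 1 to 3 and to 0.21 against Col-0 water, where 11 of 14 were higher. For 20 nuclear photosynthesis genes the median was 0.14, with 18 higher and none at an unadjusted p under 0.05, and with replicates 1 to 3 it was 0.015.

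Markers of other cell types were compared as well. All 10 markers of dividing cells were higher, with a median of 0.60, and 2 had an unadjusted p under 0.05. Their summed level was 34.3 to 66.2 CPM in Col-0 estradiol and 59.6 to 103 CPM in the line, so that the ranges overlapped. CDKB2;1, a mitotic kinase gene that overlaps AT1G76530, was at 7.71, 6.50 and 9.60 CPM against 12.2, 9.94, 15.8 and 13.5 CPM (0.70 ± 0.27, edgeR adjusted p = 0.431). Of the 5 floral markers 3 were measured, all at low levels and higher. The summed level of all 5 was 1.25 to 1.92 CPM against 2.31 to 4.92 CPM, highest in replicate 4. PI was at 0.686, 0.0448 and 1.13 CPM against 1.89, 1.11, 1.88 and 2.01 CPM (1.48 ± 0.60). SHP1, itself a gene of the flower, was lowest of the line in replicate 4, at 0.702 CPM, where the summed floral markers were highest. The part of floral tissue in the SHP1 difference was not tested. Of 6 root markers 2 were measured, both higher, and 1 marker was at 0 in all 7 compared libraries. The summed level of all 6 was 21.6 to 39.9 CPM against 38.6 to 68.4 CPM. Of 7 vascular markers 4 were lower and 3 higher, of 5 guard cell markers 4 were higher, and of 5 mesophyll markers 4 were higher, with medians of -0.013, 0.10 and 0.14. The mesophyll median was 0.019 with replicates 1 to 3. None of 3 seed markers passed the filter. The part of these cell types in the other results was not tested.

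Genes that the literature describes as WRKY75 targets were named apart from the rule for list members. ICS1, which makes salicylic acid, was at 26.7, 28.3 and 28.8 CPM against 50.7, 27.1, 31.8 and 16.3 CPM. The line libraries spread to both sides of Col-0, and the log2 fold change was 0.17 ± 0.32 (95% interval -0.52 to 0.87). The catalase gene CAT2 had one of 0.35 ± 0.36 (-0.44 to 1.13), and CPC, a regulator of root hairs, one of 0.023 ± 0.23 (-0.47 to 0.52). For ORA59 it was -1.05 (-2.10 to -0.0066). FT, the flowering signal, did not pass the count filter, at no more than 0.0985 CPM in any of the 7 libraries. None of them was called.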

How the data were processed

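RNA was sequenced from unstranded TruSeq RNA v2 libraries, made from 100 ng of total RNA per the labels' protocols. The authors deposited raw counts, the number of reads assigned to each gene, made with FastQC, TopHat2, SAMtools and HTSeq on TAIR10, per the submitters' processing notes; versions are not given in the sources used here. Files listed 33602 genes, and no row lacked a gene.

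Samples were grouped by title. All 14 libraries entered 1 fit in edgeR 4.0.16 (R 4.3.3, limma 3.58.1), with filterByExpr (minimum count 10, smallest group 3; 13936 genes removed), TMM scaling, group as factor, the robust quasi-likelihood test, 10 residual degrees of freedom and a biological coefficient of variation of 0.196. A gene was called at a Benjamini-Hochberg adjusted p under 0.05. SE came from the F statistic, and 95% intervals from it. Repeats used DESeq2 1.42.0, other scalings, filters, references, a replicate block and each library left out. Deviations of replicates 1 to 3 from their group means correlated between same-numbered libraries of the 2 lines at 0.201, 0.221 and 0.390, all over 0.1, so the numbers were taken to pair the lines, from the data and not from a label. Exact permutation tests used log2(CPM + 1), with a pseudocount of 1. One count was 0.044 to 0.0528 CPM. Libraries of a group were not near copies (lowest chi-square per degree of freedom 14.4), and p-values measure the spread between these samples.

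The compared samples, gene lists and tests were chosen with earlier results of these data known. The naming rule took WRKY75, all called genes, up to 10 uncalled genes per direction by p (mean of at least 1 CPM, no overlap), up to 4 members per list by p, and 2 neighbours per side. List members named beyond this, CYP81D5 and genes of large fold change were added after their values were seen, as were the sequence motifs. Upstream sequences came from RefSeq TAIR10.1, where 99.997% of 32835 matched nuclear genes overlapped their locus in the files. Of 120 genes searched for near-identical copies 8 had one, and 12 overlapped another gene.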

Additional observations from a re-analysis of the deposited data

Results flagged for a closer look

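One library stood apart from the other 3 of N2102363, by Dixon's test at the 95% level, for 10 of 121 genes examined (8.26%); chance alone gives such a gap in about 1 of 20 groups. Replicate 1 was high for PR1 (94.7 CPM, the others 9.62 to 12.3), ALD1 (5.33 CPM, the others 0.483 to 1.05) and DLO1 (10.4 CPM, the others 0.702 to 1.38), all genes of salicylic acid defence. In N2102362 replicate 1 was also the highest for these genes, at 60.4, 3.40 and 3.45 CPM, and in Col-0 estradiol at 7.12, 0.844 and 1.32 CPM. In Col-0 water it was not the highest for PR1, at 5.85 CPM against 7.57 CPM in replicate 3. Replicate 4 was high for the clock gene CCA1 (69.1 CPM, the others 29.6 to 36.2), the floral gene AG (1.96 CPM, the others 0.799 to 0.969) and AT3G23880 (16.1 CPM, the others 13.1 to 13.5), and CCA1 was at 84.5 CPM in replicate 4 of N2102362. Replicate 2 was high for MSRB5 (16.2 CPM, the others 13.0 to 13.4) and RGA1 (100.2 CPM, the others 78.9 to 81.9) and low for PI (1.11 CPM, the others 1.89 to 2.01). Replicate 3 was high for PHO1 (50.3 CPM, the others 36.4 to 38.01).

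CYP81D5 differed between the lines by 4.87 on the log2 scale in a direct test (edgeR), while N2102363 stood near Col-0 for it.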

How the results depend on the processing

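The 5 genes called with all replicates kept their direction in 18 other settings, and WRKY75 and AT3G01345 kept their call in all of them. AT1G42140, IRT3 and TPPI lost it in the fit of the compared groups alone (edgeR adjusted p = 0.0864, 0.0504 and 0.103), where 2 genes were called. Counts of calls were 37 with DESeq2, 27 with Col-0 water as reference and 55 with both Col-0 groups, and 5 to 8 with 1 library left out, the 8 without Col-0 estradiol replicate 3. Counts at an unadjusted p under 0.05 were 4607 and 4788 with those references, and 1225 to 3127 with 1 library left out, lowest without Col-0 estradiol replicate 1 and 1330 without N2102363 replicate 4. With replicates 1 to 3, counts were 28 in DESeq2, 1 (AT3G01345) for the compared groups alone, where WRKY75 had an edgeR adjusted p of 0.0835, and 2 to 5 with 1 library left out, 2 without N2102363 replicate 2, 3 without its replicate 1 and 4 without Col-0 estradiol replicate 1. WRKY75 and AT3G01345 kept their call in all 6 of these fits, IRT3 in 5, AT1G42140 in 3, TPPI and ZIFL1 in 1 each and SHP1 in 0. Between the lines DESeq2 called 4 genes, and 1 or 2 were called with 1 library left out, 2 without N2102362 replicate 4.

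Between Col-0 estradiol and N2102363, 2 of 3 same-number correlations passed 0.1 (0.228, 0.081 and 0.152), so the numbers were not taken to pair these groups, though each N2102363 library of replicates 1 to 3 correlated best with its own number. With a replicate block, 7 genes were called (3 higher, 4 lower), adding ZIFL1 (edgeR adjusted p = 0.00314) and AT2G01008 (edgeR adjusted p = 0.0237), and 2 between the lines (CYP81D5 and ZIFL1). With replicates 1 to 3 the block called 5, without SHP1 and TPPI (edgeR adjusted p = 0.052).

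Values that changed sign, all uncalled, were CPC (-0.045 with the replicate block, -0.0028 with replicates 1 to 3, -0.31 against water, -0.15 against both Col-0 groups, -0.089 to 0.18 with 1 library left out), RCA (-0.074 with the replicate block, -0.051 with replicates 1 to 3, -0.048 to 0.25 with 1 left out), HT1 (0.051 against water, -0.26 to 0.047), SEP3 (-0.057 against water), RD29A (0.014 against water), MYB44 (0.25 against water), NRT2.1 (-0.20 to 0.65), CAB1 (-0.19 to 0.41), LHCB4.1 (-0.49 to 0.062) and ICS1 (-0.16 to 0.39). The cause was not tested. Depth limits genes near 1 count per library, such as FT and MIR169m.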
